A study of Mus musculus with 12 samples.

Results

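Retinoic acid, the hormone-like form of vitamin A, is made inside cells and acts on genes through nuclear receptors. Transcript levels of 9 genes of its synthesis and response were followed in mouse embryonic fibroblasts (MEFs) carrying 4 versions of Nras codon 61. The genes are Aldh1a1, Aldh1a2, Aldh1a3, Dhrs3, Cyp26b1, Stra6, Crabp1, Crabp2 and Rarb, chosen by symbol out of the 24419 genes of the count table. All 9 passed a filter on low counts that kept 15759 genes, Stra6 only through the genotypes in which it was high, so that its levels are described without a test and the counts and medians of members are over the other 8.

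MEFs came from C57BL/6 TN embryos homozygous for the melanocyte-driven Tyr::CreERT2 transgene and for LSL-Nras, a conditional allele that is silent until Cre recombinase removes a stop cassette. The amino acid at position 61 of NRAS is the wild-type glutamine in 61Q/Q, whereas 61P/P cells have proline there, 61H/H cells histidine and 61R/R cells arginine. The 61R allele is the original one, from which the others were made by CRISPR-Cas9. All 4 genotypes, 61Q/Q included, carried the same transgene and LSL cassette and received an adenovirus encoding Cre and eGFP, so the controls differ from the mutants in the codon and not in the infection. The cells were infected at passage 3, and RNA was taken after 6 further days in culture. There were 3 cultures per genotype, each from a separate embryo. Mice of the 61R/R and 61H/H models are melanoma-prone and are called melanomagenic, and 61P/P and 61Q/Q non-melanomagenic. The cells are fibroblasts in which Nras was switched on by the virus and not by the melanocyte transgene.

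As background, cells take up retinol, for which STRA6 is a receptor, and oxidize it reversibly to retinal. DHRS3 turns retinal back to retinol, and the retinal dehydrogenases ALDH1A1, ALDH1A2 and ALDH1A3 oxidize retinal irreversibly to retinoic acid. CRABP1 and CRABP2 carry retinoic acid in the cytoplasm, CRABP2 towards the nucleus and CRABP1 also towards breakdown, and CYP26B1 hydroxylates it for removal. RARB is one of the retinoic acid receptors, which bind DNA as partners of the retinoid X receptors. Rarb, Dhrs3, Cyp26 genes and Stra6 are textbook genes that retinoic acid itself induces in many cells, and in embryos these enzymes set where the signal is made and destroyed.

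The best known receptor binding site of this system lies before the inner start of Rarb, and the promoter sequences of 3 of the 9 genes are shown because Rarb and Dhrs3 were lower and Crabp1 higher in the melanomagenic genotypes. Each is the 250 bases before an annotated start, 5′ to 3′ on the strand of the gene, from RefSeq on GRCm38.p6, at chr14:16575477-16575726 on the minus strand for Rarb, chr4:144892577-144892826 on the plus strand for Dhrs3 and chr9:54764498-54764747 on the plus strand for Crabp1. Capitals mark a direct repeat of 2 receptor half-sites.
Rarb: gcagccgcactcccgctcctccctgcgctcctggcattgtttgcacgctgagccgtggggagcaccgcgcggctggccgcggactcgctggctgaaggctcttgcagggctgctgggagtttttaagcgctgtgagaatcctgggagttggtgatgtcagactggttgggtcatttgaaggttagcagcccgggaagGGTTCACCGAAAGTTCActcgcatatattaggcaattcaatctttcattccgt
Dhrs3: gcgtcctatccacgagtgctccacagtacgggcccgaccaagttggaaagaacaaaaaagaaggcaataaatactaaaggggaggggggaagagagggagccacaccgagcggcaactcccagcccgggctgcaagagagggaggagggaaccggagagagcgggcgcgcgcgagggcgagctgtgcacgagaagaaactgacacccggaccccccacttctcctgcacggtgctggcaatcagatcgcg
Crabp1: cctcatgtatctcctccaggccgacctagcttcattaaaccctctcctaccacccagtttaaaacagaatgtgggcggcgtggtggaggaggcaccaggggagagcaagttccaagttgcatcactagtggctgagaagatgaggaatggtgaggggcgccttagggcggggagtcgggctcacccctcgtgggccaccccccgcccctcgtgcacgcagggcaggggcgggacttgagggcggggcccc
The repeat of Rarb, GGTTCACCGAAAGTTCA, begins 53 bases before the start. The search used the half-site AGGTCA and its variant forms AGTTCA, as well as GGGTCA and also GGTTCA, with any pair of them counted as a repeat on either strand at a spacing of 1, 2 or 5 bases, in windows from 250 bases before to 50 bases after a start. Promoter windows were at hand for 7 of the 9 genes (not Aldh1a3 and Crabp2), 13 windows in all, and the one of Rarb was the only one with such a repeat. Among all 32851 mouse windows, 32 (0.0974%) held a repeat at a spacing of 5 and 0.588% one at any of these spacings. Single half-sites were found for 3 of the 7 genes and for 46.9% of all genes with a window. In the mm10 annotation of the count table, the dehydrogenase genes lie at chr19:20601982-20643462 (Aldh1a1, plus strand), chr9:71215789-71296243 (Aldh1a2, plus) and chr7:66390893-66427477 (Aldh1a3, minus). Dhrs3 spans chr4:144892827-144927645 (plus), Cyp26b1 chr6:84571414-84593908 (minus), Stra6 chr9:58129088-58153997 (plus), Crabp1 chr9:54764748-54773110 (plus) and Crabp2 chr3:87948693-87953372 (plus). The counts of each gene take reads over all its listed exons, so they add transcripts from every start and do not show which promoter was used.

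The libraries held 73222911 to 92179519 counts in genes. The 12 fibroblast markers summed to 21471 CPM or more (CPM being counts scaled to library size) in every library, and 6 melanocyte markers to at most 1.01 CPM. Fibroblast sums were 45030 to 62664 CPM in 61Q/Q and 33599 to 37936 CPM in 61P/P. They were 21808 to 24524 CPM in 61H/H and 21471 to 38012 CPM in 61R/R. Fn1 and Col1a1 had the highest means of the 12 in 61Q/Q (18414 and 16973 CPM). Against 61Q/Q, 6 of the 12 fell and 3 rose in 61H/H, where 14.5% and 13.8% of all genes did. In 61R/R 5 fell and 1 rose, where 9.59% and 9.43% did. A list of 12 macrophage markers, none of them at 0 in any library, summed to 237 to 355 CPM in 61Q/Q, 129 to 324 CPM in 61P/P, 129 to 199 CPM in 61H/H and 147 to 268 CPM in 61R/R. Of these, 7 fell in 61H/H against 61Q/Q, where 14.5% of all genes did, and none was called in 61R/R or in the contrast of melanomagenic with non-melanomagenic genotypes. A list of 6 chondrocyte markers summed to 78.7 to 173 CPM in 61Q/Q, 104 to 242 CPM in 61P/P, 59.6 to 72.6 CPM in 61H/H and 81.0 to 87.0 CPM in 61R/R. In the contrast of both classes 3 of its 4 tested genes were lower (Col2a1, Acan and Matn3), where 14.6% of all genes were, and Col9a1 or Matn1 was at 0 in 6 libraries. Acan went from a mean of 16.8 CPM in 61Q/Q to 4.10 in 61P/P, 3.93 in 61R/R and 1.40 in 61H/H. The part of these markers in the results was not tested. Nras itself was at 98.8 ± 5.23 CPM in 61Q/Q, 98.8 ± 10.1 CPM in 61P/P, 120 ± 4.64 CPM in 61H/H and 116 ± 8.37 CPM in 61R/R (mean ± SD, n = 3 each), and a count per gene does not show the codon. A library that stood apart was 61R/R replicate 1, in which Aldh1a3, Rarb and Crabp1 lay nearer to the non-melanomagenic libraries than in the other 61R/R cultures. Its fibroblast markers also summed to 38012 CPM, against 21471 and 22868 CPM in 61R/R replicates 2 and 3, so it differed beyond these genes. In bulk RNA, fewer cells of a type and less RNA per cell cannot be told apart.

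Compared per length, as RPKM (counts scaled to library size and gene length), the 9 transcripts spanned 4 orders of abundance. Crabp1 led with a mean of 267 RPKM over the 12 libraries, followed by Crabp2 at 17.9, Dhrs3 at 10.2 and Cyp26b1 at 5.19. The synthesizing enzymes were low, with 1.80 RPKM for Aldh1a3, 0.992 for Aldh1a2 and 0.438 for Aldh1a1, and Rarb stood at 0.757. Stra6 was at the edge of detection with 0.0236 RPKM. The highest library exceeded the lowest 12.9-fold for Aldh1a3, 11.7-fold for Stra6, 8.74-fold for Crabp1, 7.30-fold for Aldh1a1 and 6.31-fold for Aldh1a2. For Rarb it was 3.42-fold, for Dhrs3 2.87-fold, for Crabp2 2.69-fold and for Cyp26b1 2.13-fold. Whether this spread went with abundance was not tested.

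Each genotype was compared with each other by edgeR's quasi-likelihood F test in a model of all 12 libraries, and a gene was called at a Benjamini-Hochberg adjusted p under 0.05 over all genes tested. Against 61Q/Q, 4 of the 8 genes fell in 61R/R (Aldh1a3, Cyp26b1, Rarb and Dhrs3) and none rose, where 9.59% of all genes fell and 9.43% rose. In 61H/H, Aldh1a3 and Rarb fell and Crabp2 rose, where 14.5% of all genes fell and 13.8% rose. In 61P/P, Crabp2 rose and no member fell, where 3.15% of all genes rose and 3.69% fell. The median log2 fold change of the 8 genes was −0.65 in 61R/R, beside 0.0067 over all genes tested. It was −0.43 in 61H/H, beside 0.0083, and −0.18 in 61P/P, beside 0.010. These 3 comparisons share the 61Q/Q libraries.

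Between the mutants, Dhrs3 was the only member to fall in 61R/R relative to 61P/P, where 1.6% of all genes fell and 1.85% rose, and Aldh1a2 the only one to rise in 61H/H relative to 61P/P, where 1.47% rose and 1.02% fell. No member, and 0% of all genes in either direction, was called between 61R/R and 61H/H by edgeR, although 778 genes, 2 members among them, had an unadjusted p under 0.05 and DESeq2 called 25 genes, 0 of them members. Contrasting the mean of both melanomagenic genotypes with the mean of both non-melanomagenic ones, 6 of the 8 genes were called. Aldh1a3, Cyp26b1, Rarb and Dhrs3 were lower, and Aldh1a2 and Crabp1 higher, where 14.6% of all genes were lower and 14.2% higher. This contrast weights the genotypes equally, and its error is the spread within genotypes. Of the members, Crabp1 alone had 6 melanomagenic libraries that did not overlap with the 6 others. The share of all genes that separated in this way was not counted, so this is a description and no mark of Crabp1.

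**Figure D1:**
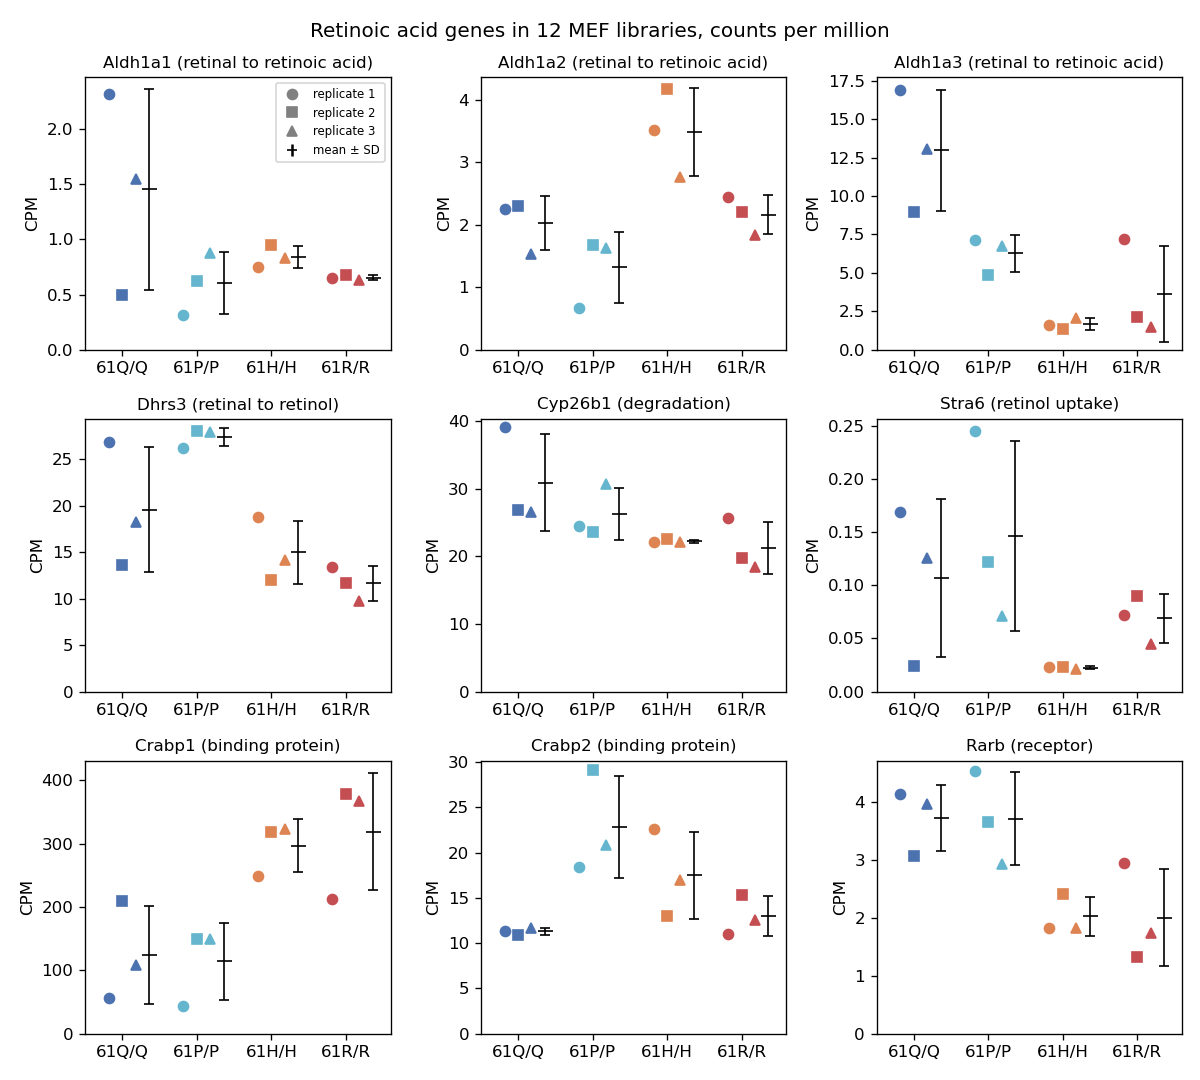
Level of each gene in CPM (linear axes from 0) in the 12 libraries, by genotype, with circles, squares and triangles for replicates 1, 2 and 3 and a black bar for the mean ± SD (n = 3). Crabp1 lies at 212 CPM or above in all 61H/H and 61R/R libraries and at 209 or below in the others, and 61R/R replicate 1 is the highest 61R/R library for Aldh1a3 (7.18) and Rarb (2.94).

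Aldh1a3, the most abundant of the 3 retinal dehydrogenases in 61Q/Q, showed the largest fall of the well detected members. Its level was 16.9, 8.99 and 13.0 CPM in 61Q/Q replicates 1 to 3 and 7.16, 4.87 and 6.77 CPM in 61P/P. In 61H/H it was 1.59, 1.31 and 2.07 CPM, and in 61R/R 7.18, 2.12 and 1.5 CPM. Every 61H/H library lay below every 61P/P library, which in turn lay below every 61Q/Q library, while 61R/R spread from the 61H/H range to just above 61P/P. Relative to 61Q/Q, Aldh1a3 fell by 2.97 on the log2 scale in 61H/H (SE 0.51, adjusted p = 0.0044). This call was kept without any 1 of the 12 libraries and under each other alternative tried.

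The fall of Aldh1a3 in 61R/R was 1.85 (SE 0.48, adjusted p = 0.028), and the estimate grew to −2.84 without 61R/R replicate 1. The call was lost without replicate 1 or 3 of 61Q/Q (adjusted p = 0.10 and 0.098) and without replicate 2 or 3 of 61R/R (adjusted p = 0.12 and 0.10). Each of these fits called 0 of all genes for 61R/R against 61Q/Q, so the loss was not particular to Aldh1a3. In 61P/P the log2 fold change was −1.05 and was not called (SE 0.47, adjusted p = 0.18), and 61H/H against 61P/P stood at −1.92 (SE 0.50, adjusted p = 0.059). In the order 61Q/Q, 61P/P, 61R/R and 61H/H of mean levels, no 2 neighbours therefore differed beyond the threshold, although both ends did. As a class, the melanomagenic genotypes were lower by a log2 fold change of −1.89 (SE 0.35, adjusted p = 0.0048), which held without any single library.

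Aldh1a2, the dehydrogenase that makes most retinoic acid in the early embryo, went the other way. It stood at 2.25, 2.30 and 1.52 CPM in 61Q/Q, 0.661, 1.67 and 1.62 CPM in 61P/P, 3.51, 4.17 and 2.77 CPM in 61H/H and 2.44, 2.20 and 1.83 CPM in 61R/R. The 3 libraries of 61H/H were above all 9 others, and 61R/R overlapped with 61Q/Q. Aldh1a2 was higher in 61H/H than in 61P/P by 1.40 (SE 0.31, adjusted p = 0.046), but the call held in just 3 of the 12 fits without 1 library, in the others of which adjusted p ran from 0.058 to 0.18. Those other fits called 0 to 281 of all genes for this pair, beside 392 in the full fit. The estimate was 1.08 without 61P/P replicate 1, the lowest library. Against 61Q/Q the log2 fold change was 0.78 in 61H/H (SE 0.31, adjusted p = 0.077) and 0.09 in 61R/R (SE 0.31, adjusted p = 0.85). The class contrast gave 0.75 (SE 0.22, adjusted p = 0.028), a call lost without 61Q/Q replicate 3, 61H/H replicate 1 or 2 or 61R/R replicate 2 (adjusted p = 0.069, 0.053, 0.067 and 0.059). That call was also lost in a fit with 1 mean per class, whose error includes the spread between the genotypes of a class.

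Aldh1a2 is also a gene of mesothelial cells, which line body cavities. In the same libraries 10 mesothelial markers summed to 23.3 to 29.8 CPM in 61Q/Q and 18.8 to 45.8 CPM in 61P/P, and to 53.1 to 91.8 CPM in 61H/H and 40.4 to 69.7 CPM in 61R/R. In the class contrast 4 of the 10 rose (Msln, Krt18, Krt19 and Bnc1) and Upk1b fell, where 14.2% of all genes rose and 14.6% fell, and no marker was at 0 in any library. The markers differed in level. Wt1 and Upk3b stayed low, with genotype means between 0.425 and 0.879 CPM for Wt1 and between 0.0880 and 0.265 for Upk3b. For Msln the melanomagenic means were 19.5 CPM (61H/H) and 11.5 CPM (61R/R), against 1.25 CPM (61Q/Q) and 3.15 CPM (61P/P). The part of these mesothelial markers in the level of Aldh1a2 was not tested.

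Aldh1a1, the third dehydrogenase, varied widely among the cultures of 61Q/Q and of 61P/P and little among those of 61R/R. It was at 2.32, 0.499 and 1.55 CPM in 61Q/Q, 0.318, 0.624 and 0.875 CPM in 61P/P, 0.752, 0.950 and 0.829 CPM in 61H/H and 0.650, 0.674 and 0.633 CPM in 61R/R. The wild-type genotype held both the highest values and 1 of the lowest, and all mutants lay within its range except 61P/P replicate 1. No comparison called it, with log2 fold changes against 61Q/Q of −1.15 in 61R/R (SE 0.47, adjusted p = 0.10) and −1.26 in 61P/P (SE 0.47, adjusted p = 0.12). Without 61Q/Q replicate 2, both would be called at −1.56 and −1.67 (adjusted p = 0.0085 and 0.012). Its close copy Aldh1a7 was at 1.80 to 6.03 CPM in 61Q/Q libraries, and how reads were split between them is not known, so the level of Aldh1a1 is uncertain.

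In every 61H/H library Aldh1a2, and not Aldh1a3, was the most abundant of the 3 dehydrogenase transcripts per length. Aldh1a3 made up 67.7% to 72.8% of the summed RPKM of the 3 dehydrogenases in 61Q/Q and 57.8% to 82.4% in 61P/P, but 14.3% to 27.1% in 61H/H. Aldh1a2 held 54.6% to 68.4% of the sum in 61H/H and 12.8% to 26.0% in 61Q/Q. In 61R/R replicate 1 Aldh1a3 still led with 60.1%, whereas Aldh1a2 led in both other 61R/R libraries. The summed level was 5.43 ± 1.60 RPKM in 61Q/Q, 2.72 ± 0.361 RPKM in 61P/P, 2.44 ± 0.233 RPKM in 61H/H and 2.33 ± 1.04 RPKM in 61R/R (mean ± SD, n = 3). These sums and shares were not tested, and transcripts are not enzyme activity.

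**Figure D2:**
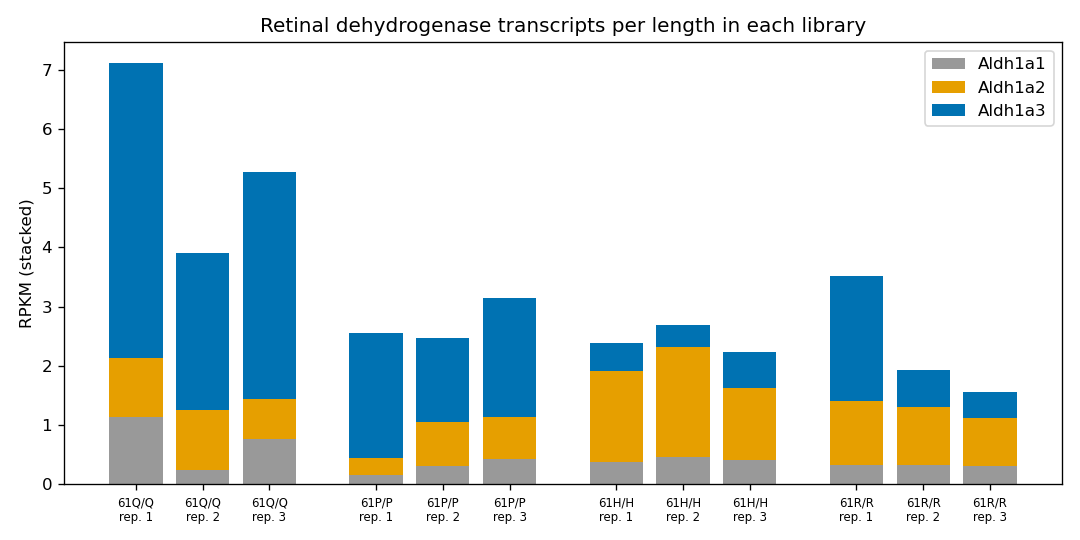
Stacked RPKM of Aldh1a1, Aldh1a2 and Aldh1a3 in each of the 12 libraries, by genotype and replicate. Aldh1a3 forms 67.7% to 72.8% of the bar in 61Q/Q and 14.3% to 27.1% in 61H/H, where Aldh1a2 forms 54.6% or more.

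Dhrs3, which draws retinal back to retinol, was highest in 61P/P and lowest in 61R/R. Its level was 26.9, 13.6 and 18.3 CPM in 61Q/Q and 26.2, 28.0 and 27.9 CPM in 61P/P. It was 18.7, 12 and 14.2 CPM in 61H/H and 13.4, 11.7 and 9.74 CPM in 61R/R. The 61P/P cultures were tight and above both melanomagenic genotypes, and 61Q/Q spread from the 61R/R level to that of 61P/P. Dhrs3 fell by 1.24 on the log2 scale in 61R/R relative to 61P/P (SE 0.23, adjusted p = 0.025) and by 0.75 relative to 61Q/Q (SE 0.23, adjusted p = 0.042). The first call did not survive leaving out replicate 1 or 2 of 61P/P (adjusted p = 0.058 and 0.077) or replicate 2 or 3 of 61R/R (adjusted p = 0.090 and 0.14), fits that called 82, 0, 0 and 0 of all genes. The second was lost in 7 of the 12 fits without 1 library, at adjusted p from 0.053 to 0.17, and its estimate was −0.45 without 61Q/Q replicate 1. Among them, the fits without replicate 1 or 3 of 61Q/Q or replicate 2 or 3 of 61R/R called 0 of all genes. In 61H/H the log2 fold change against 61P/P was −0.87 (SE 0.23, adjusted p = 0.060). The class contrast of −0.81 (SE 0.16, adjusted p = 0.0060) held without any single library.

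Cyp26b1, the enzyme that clears retinoic acid, changed by small amounts. Levels were 39.2, 26.9 and 26.6 CPM in 61Q/Q, 24.5, 23.6 and 30.8 CPM in 61P/P, 22.1, 22.5 and 22.2 CPM in 61H/H and 25.7, 19.7 and 18.4 CPM in 61R/R. The 61H/H libraries were almost equal, and the 61Q/Q libraries were above all 61H/H and 61R/R libraries. Cyp26b1 fell by 0.54 in 61R/R relative to 61Q/Q (SE 0.17, adjusted p = 0.044) and differed by −0.47 in 61H/H (SE 0.17, adjusted p = 0.053). The fall in 61R/R rested in part on 61Q/Q replicate 1, without which it was −0.33 (adjusted p = 0.18), and it was lost in 8 of the 12 fits without 1 library, at adjusted p from 0.058 to 0.18. Among them, the fits without replicate 1 or 3 of 61Q/Q or replicate 2 or 3 of 61R/R called 0 of all genes. The class difference of −0.39 (SE 0.12, adjusted p = 0.031) was lost in 7 of the 12 fits, at adjusted p from 0.058 to 0.079. Its relatives Cyp26a1 and Cyp26c1, which did not pass the filter, had means of at most 0.0269 and 0.0608 CPM in any genotype.

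Crabp1, the most abundant member, rose across the class. It was at 56.3, 209 and 109 CPM in 61Q/Q and 43.2, 150 and 149 CPM in 61P/P. It was at 249, 318 and 324 CPM in 61H/H and 212, 378 and 368 CPM in 61R/R. Each melanomagenic library was above each non-melanomagenic one, with 61R/R replicate 1 and 61Q/Q replicate 2 almost touching, and cultures within 61Q/Q and within 61P/P differed more than 3-fold. The class contrast gave a log2 fold change of 1.37 (SE 0.35, adjusted p = 0.017) that held without any single library. No pair of genotypes was called by edgeR, at 1.35 for 61R/R (SE 0.50, adjusted p = 0.075) and 1.25 for 61H/H (SE 0.50, adjusted p = 0.079) against 61Q/Q, and at 1.49 (adjusted p = 0.11) and 1.38 (adjusted p = 0.12) against 61P/P. DESeq2 called 61R/R against 61Q/Q (adjusted p = 0.038) and against 61P/P (adjusted p = 0.044), and gave adjusted p of 0.051 and 0.060 for 61H/H. Both comparisons with 61Q/Q would be called without 61Q/Q replicate 2, at 1.95 and 1.85 (adjusted p = 0.018 for each), or without 61P/P replicate 1 (adjusted p = 0.031 and 0.030). The 2 neighbours at each end of the order, 61P/P with 61Q/Q and 61H/H with 61R/R, differed by −0.13 (SE 0.49) and 0.10 (SE 0.49).

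Crabp2 did not follow Crabp1. Its level was 11.3, 10.8 and 11.7 CPM in 61Q/Q, 18.4, 29.2 and 20.8 CPM in 61P/P, 22.6, 13.0 and 16.9 CPM in 61H/H and 11, 15.4 and 12.5 CPM in 61R/R. The wild-type cultures agreed closely, and all 61P/P and 61H/H libraries were above them. Crabp2 rose by 1.02 in 61P/P (SE 0.21, adjusted p = 0.025) and by 0.63 in 61H/H (SE 0.21, adjusted p = 0.043) relative to 61Q/Q, and stood at 0.20 in 61R/R (SE 0.21, adjusted p = 0.51). The rise in 61P/P was lost without 61Q/Q replicate 1 or 3 or 61P/P replicate 2 (adjusted p = 0.078, 0.12 and 0.076), and that in 61H/H in 7 of the 12 fits without 1 library, at adjusted p from 0.051 to 0.17, with an estimate of 0.41 without 61H/H replicate 1. For 61P/P against 61Q/Q, the fits that lost the call had 58, 0 and 5 of all genes called. Crabp2 was the member called in 61P/P, and its class contrast was −0.09 (SE 0.15, adjusted p = 0.67). Crabp1 supplied 72.5% or more of the summed RPKM of both binding proteins in every library, and 92.5% or more in the melanomagenic ones.

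Rarb, the receptor whose promoter holds the repeat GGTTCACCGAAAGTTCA, was lower by a like amount in both melanomagenic genotypes. It stood at 4.13, 3.07 and 3.95 CPM in 61Q/Q, 4.53, 3.65 and 2.93 CPM in 61P/P, 1.82, 2.41 and 1.83 CPM in 61H/H and 2.94, 1.33 and 1.73 CPM in 61R/R, from 118 to 370 counts per library. The 61H/H libraries were below all non-melanomagenic ones, and of the 61R/R libraries only replicate 1 reached into the 61P/P range. Rarb fell by 0.90 in 61R/R (SE 0.28, adjusted p = 0.044) and by 0.88 in 61H/H (SE 0.28, adjusted p = 0.035) relative to 61Q/Q. The log2 fold change of 61P/P was −0.0041 (SE 0.27, adjusted p = 0.996). The fall in 61R/R was lost in 8 of the 12 fits without 1 library (adjusted p from 0.057 to 0.16) and had an estimate of −0.67 without 61R/R replicate 2, and the one in 61H/H was lost without 61Q/Q replicate 1 or 3 or any 61H/H replicate (adjusted p from 0.053 to 0.11), with estimates between −1.02 and −0.80 over the 12 fits. For 61R/R against 61Q/Q, leaving out replicate 1 or 3 of 61Q/Q or replicate 2 or 3 of 61R/R left 0 of all genes called. The class contrast of −0.89 (SE 0.19, adjusted p = 0.0091) held without any single library.

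The count of Rarb carries an uncertainty of annotation. Rarb lies at chr14:16430840-17082331 on the minus strand in mm10, and its neighbour Top2b, on the plus strand, ends 52 bases away in the annotation of the count table. In the GENCODE M21 annotation of the same build, Top2b exons run on over 1792 of the 3776 exon bases of Rarb (47.5%). The library kit keeps the strand, but the strand setting of the counting is not given in the sources used here. Top2b was at 208 to 237 CPM in every library and changed by −0.06 in the class contrast (SE 0.03, adjusted p = 0.24). Its part in the count of Rarb was not tested. No other member overlapped the exons of another gene in either annotation.

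Stra6, the retinol receptor, was counted 12, 2 and 10 times in 61Q/Q, 20, 9 and 6 times in 61P/P, 2, 2 and 2 times in 61H/H and 6, 8 and 4 times in 61R/R. All 61H/H libraries sat at 2 counts, as did 61Q/Q replicate 2. The 61R/R libraries lay within the range of 61Q/Q, and 61H/H was below all 61P/P and 61R/R libraries. At these counts single reads move any ratio, and no test is given because the gene entered the fit through its 61Q/Q and 61P/P libraries.

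**Figure D3:**
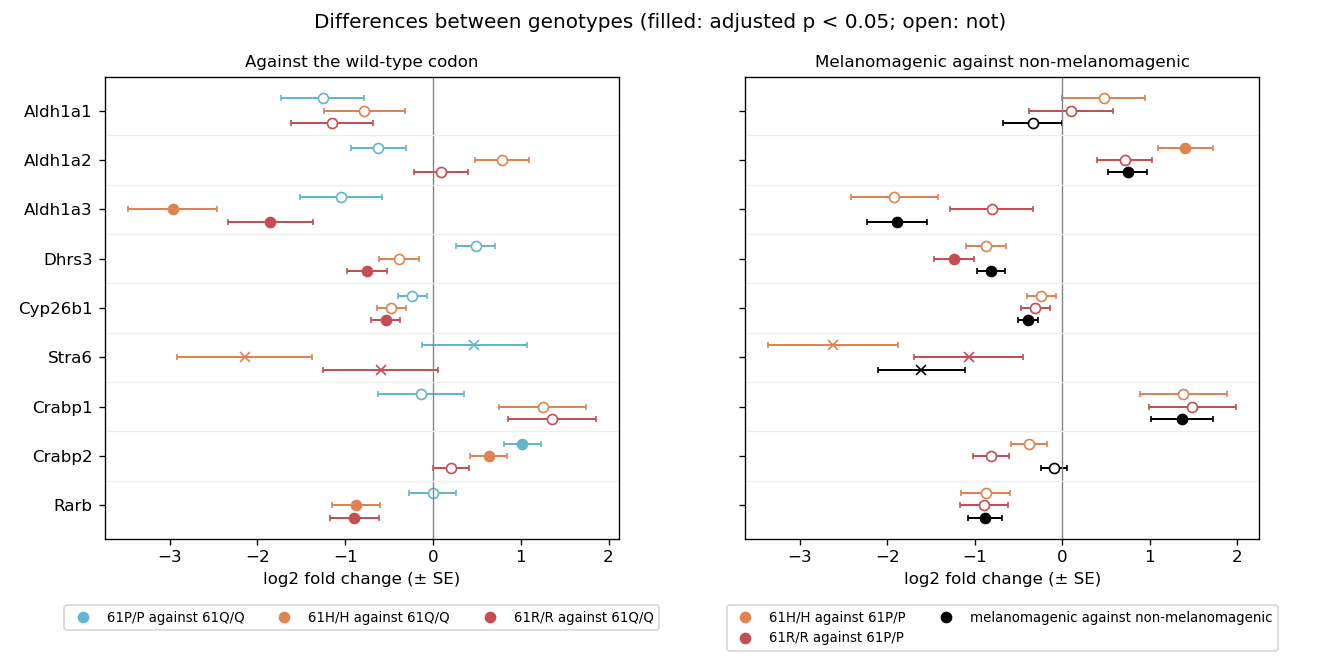
Log2 fold change ± SE of each gene against 61Q/Q (left panel, 61P/P, 61H/H and 61R/R) and of melanomagenic against non-melanomagenic genotypes (right panel, 61H/H and 61R/R against 61P/P and, in black, the class contrast), with filled points at an adjusted p under 0.05. Aldh1a3 lies farthest left of the called genes (−2.97 in 61H/H), and Crabp1 is called by edgeR in the class contrast (1.37) and in no pair. Stra6 is drawn as crosses, with no call.

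The rest of the pathway was read from lists of 63 genes, of which 61 were in the count table and 49 were tested. In 61H/H against 61Q/Q, 12 of the 49 fell and 3 rose, where 14.5% and 13.8% of all genes did. In 61R/R, 3 fell and 2 rose, where 9.59% and 9.43% of all genes did, and in 61P/P 2 fell and 0 rose, where 3.69% and 3.15% did. Relative to 61P/P, 2 fell and 0 rose in 61R/R, where 1.6% and 1.85% of all genes did, and 0 were called in 61H/H, where 1.02% fell and 1.47% rose. Their median log2 fold change against 61Q/Q was −0.18 for 61H/H, −0.10 for 61R/R and −0.04 in 61P/P, beside 0.0083, 0.0067 and 0.010 over all genes. The class contrast called 9 lower and 2 higher, where 14.6% and 14.2% of all genes were. Without 1 library at a time, between 6 and 13 fell in 61H/H and between 0 and 6 in 61R/R, both against 61Q/Q. In these fits 1879 to 5490 and 0 to 4538 of all genes were called in either direction. Of the calls in 61H/H against 61Q/Q, 6 held in all 12 such fits, among them those of Adh5, Fabp5, Rara and Tgm2 and that of Rarres2, a gene near the floor. The others were lost in at least 1. Each call in 61R/R against 61Q/Q was lost without replicate 1 or 3 of 61Q/Q and without replicate 2 or 3 of 61R/R, where the highest adjusted p ran from 0.11 to 0.17, and no call against 61Q/Q in 61P/P or against 61P/P in 61R/R held in more than 4 of the 12. Without each of the 61Q/Q or 61R/R libraries just named, 0 of all genes were called in 61R/R against 61Q/Q.

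**Figure D4:**
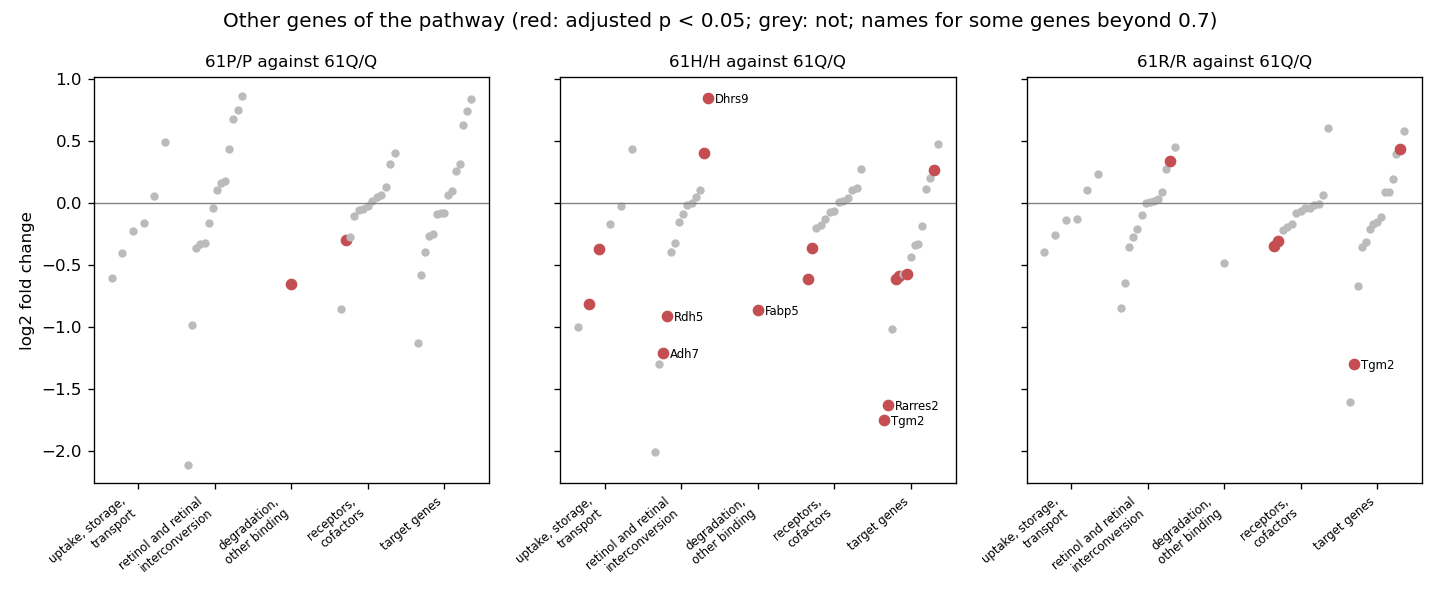
Log2 fold change against 61Q/Q of the 49 other tested genes of the pathway in 61P/P, 61H/H and 61R/R, grouped by role, red where the adjusted p was under 0.05. The called genes of 61H/H lie mostly below 0, with Tgm2 lowest among them (−1.75), and 61P/P has 2 called genes.

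Among genes of uptake and transport, 6 of 12 were tested and 2 fell in 61H/H against 61Q/Q, where 14.5% of all genes fell. Of these, the lipoprotein receptor Lrp1 fell by 0.37 (adjusted p = 0.011). Of 14 tested genes that convert retinol and retinal, 2 fell and 2 rose in 61H/H, near the 14.5% and 13.8% of all genes that did. Adh7 (−1.21, adjusted p = 0.034) and Rdh5 (−0.91, adjusted p = 0.019), which both oxidize retinols, fell, whereas Dhrs9 (0.84, adjusted p = 0.013) and the ubiquitous dehydrogenase Adh5 (0.40, adjusted p = 0.0063) rose. Adh5 rose in 61R/R as well (0.34, adjusted p = 0.022). Fabp5, which can carry retinoic acid to another class of nuclear receptors, fell in 61H/H (−0.86, adjusted p = 0.0061) and in 61P/P (−0.65, adjusted p = 0.045).

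All 13 receptor and cofactor genes were tested, and changes were small. Rara, the receptor expressed in most cells, was at 47.2 ± 1.1 CPM in 61Q/Q, 36.7 ± 2.0 in 61H/H and 38.1 ± 4.5 in 61R/R (mean ± SD, n = 3). It fell by 0.36 in 61H/H (adjusted p = 0.010) and by 0.31 in 61R/R (adjusted p = 0.029). Nrip1, a corepressor, fell by 0.30 in 61P/P (adjusted p = 0.038), and Rarg fell by 0.48 in 61R/R relative to 61P/P (adjusted p = 0.041). The retinoid X receptor genes were called in no comparison.

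Of the 18 target genes listed, 15 were tested, and 5 fell and 1 rose in 61H/H against 61Q/Q, where 14.5% and 13.8% of all genes did. Tgm2, a transglutaminase induced by retinoic acid in several cell types, was at 46.6 ± 13 CPM in 61Q/Q, 21.3 ± 5.8 CPM in 61P/P, 13.9 ± 3.6 CPM in 61H/H and 19.0 ± 8.8 CPM in 61R/R (mean ± SD, n = 3). It fell by 1.75 in 61H/H (SE 0.34, adjusted p = 0.0059) and by 1.30 in 61R/R (SE 0.33, adjusted p = 0.027). Rarres2, which encodes chemerin, was near the floor, at 0.280 to 0.465 CPM in 61Q/Q and 0.105 to 0.162 CPM in 61H/H. It fell by 1.63 in 61H/H (adjusted p = 0.011), but it may have passed the filter through genotypes in which it was higher. Its call is therefore no support. Rarres1 fell by 2.23 in 61R/R relative to 61P/P (adjusted p = 0.048), and the homeobox gene Meis1 fell by 0.57 in 61H/H (adjusted p = 0.023). Calls in a pair were also made for Hoxb4, which fell in 61H/H, Nr2f2, which rose there, and Nr2f1, which rose in 61R/R.

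The genes whose log2 CPM followed each member most closely over the 12 libraries are given as a description, since all values share libraries and genotypes. Aldh1a3 was nearest to Wisp2, Atp2b4 and Mylk (Pearson r = 0.98 each). Crabp1 was nearest to Eftud1 (0.99), Etv4 (0.98) and Ly6e (0.98), and after subtraction of genotype means these stood at 0.98, 0.96 and 0.97. Rarb was nearest to Pdlim4 (0.97), Nrbp2 (0.97) and Pcyt1a (0.96), and Dhrs3 to Kank1 (0.97), Cbr2 (0.95) and Adamtsl4 (0.95). Crabp2 was nearest to Pitx1, Ednrb and S100g (0.95, 0.94 and 0.93), and Aldh1a2 had Brd2 and Nxph3 among its 3 nearest (0.94 each). The same rule gave Myo10, Mfn1 and Akt1 for Cyp26b1 (0.92 each), Scamp1, Rusc2 and Atp6v1g1 for Aldh1a1 (0.96, 0.94 and 0.94) and Ncdn, Kcnt2 and Fam219b for Stra6 (0.95, 0.93 and 0.93). With this many genes, high values arise for any profile, and no member was among the 3 nearest to another.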

How the data were processed

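RNA was depleted of ribosomal RNA and made into stranded libraries by the authors, who used STAR for alignment to mm10, Picard 2.17.11 for marking duplicates and featureCounts for counting. Their deposited table holds raw counts of 24419 genes in 12 libraries of 73222911 to 92179519 counts, and the authors' normalized table was not used. In R 4.3.3, edgeR 4.0.16 kept 15759 genes (filterByExpr by genotype, minimum count 10), scaled libraries by TMM and fitted a mean per genotype. The 6 pairs of genotypes and the class contrast were tested with the quasi-likelihood F test, with Benjamini-Hochberg adjustment over all genes tested and a threshold of 0.05. SE is the log2 fold change divided by the square root of F. CPM used TMM-scaled totals and RPKM the gene lengths of the table.

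Members, lists and tests were chosen with earlier results of these data known. Named genes were all 9 members, other pathway genes called in a pair (values for at most 4 per list, by smallest adjusted p) and the 3 genes with the highest Pearson r to each member, predicted genes left out. A few genes that this rule takes are not reported here. Alternatives were RLE size factors, no filter, a replicate block, only the groups compared, DESeq2 1.42.0, and leaving out libraries.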

Additional observations from a re-analysis of the deposited data

How the results depend on the processing

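No change of sign of a called value was seen under any alternative. The numbers of called members given here are out of all 9, Stra6 included, and stand beside the number of all genes called in the same fit. Counts in the Results leave Stra6 out, because it entered through the genotypes in which it was high. Stra6 was among the 7 and the 5 called for 61H/H without both 61R/R replicate 1 and 61Q/Q replicate 2. With 1 library left out, it was among the highest counts of 7, for 61H/H against 61Q/Q and for the class contrast. No result for Stra6 is read from any of these numbers. RLE size factors and no filter on low counts left each number of called members within 1.5 times of that reported. In a fit of only the groups compared, 0 members and 0 of 15375 genes were called for 61R/R against 61Q/Q (reported 4 and 2997), with 5170 genes at an unadjusted p under 0.05. That fit called 5 members and 4483 genes for 61H/H against 61Q/Q (reported 3 and 4451) and 2 and 774 for 61H/H against 61P/P (reported 1 and 392), where Aldh1a2 was not called. For the class contrast it had 1 mean per class and called 5 members and 3559 genes, beside 7 members (6 when Stra6 is left out) and 4537 genes in the main fit. Aldh1a2 and Stra6 were not called there. DESeq2 called 5 members and 5207 genes for 61H/H against 61Q/Q, 4 and 1630 for 61R/R against 61P/P (reported 1 and 544) and 4 and 1839 for 61H/H against 61P/P. Without both 61R/R replicate 1 and 61Q/Q replicate 2, the numbers were 7 and 5892 for 61H/H and 3 and 3190 for 61P/P (reported 1 and 1079) against 61Q/Q, and 4 and 2415 for 61R/R and 5 and 1945 for 61H/H against 61P/P. In that fit, Crabp2 in 61H/H against 61Q/Q was not called. The 2 libraries left out there almost touched for Crabp1, and 61R/R replicate 1 stood apart in Aldh1a3 and Rarb. They lay near the other class in the members' own values, so more calls without them are no separate support.

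The study names no pairing of cultures by replicate number. Same-numbered libraries correlated at −0.078 to 0.344 after subtraction of genotype means, and 6 of 18 pairs were over 0.1. Differently numbered libraries were not compared in this way, so these correlations alone cannot settle whether the numbers pair the cultures. In the sample titles, however, cultures of the same replicate number carry a different number in each genotype. The labels thus give no pairing, and the replicate block is an alternative fit only. The replicate block called 2 members and 1005 genes for 61R/R against 61P/P and 4 and 1003 for 61H/H against 61P/P, and within 1.5 times of the reported number of members in the other comparisons. Under the block Crabp1 was called in each of the 4 pairs of a melanomagenic with a non-melanomagenic genotype, and Crabp2 was not called in 61H/H against 61Q/Q.

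With each library left out in turn, the number of called members ran from 0 to 6 for 61R/R, 1 to 7 for 61H/H and 0 to 2 for 61P/P against 61Q/Q, beside 0 to 4538, 1879 to 5490 and 0 to 2397 genes in all. It ran from 0 to 3 for 61R/R and 0 to 4 for 61H/H against 61P/P, beside 0 to 1465 and 0 to 1260 genes, and from 4 to 7 in the class contrast, beside 2644 to 5769 genes. The 4 fits with 0 members called for 61R/R against 61Q/Q called 0 genes, with 3960 to 4143 at an unadjusted p under 0.05. The number of called members stayed at 0 for 61R/R against 61H/H under each alternative. With 3 cultures per genotype, each call of a member in a pair of genotypes, apart from Aldh1a3 in 61H/H against 61Q/Q, was lost without at least 1 library. Stra6, with 2 to 20 counts per library, is limited by counting.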
